A study of Mus musculus with 16 samples.

Results

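The 16 left ventricles of this study, 1 library per mouse, differed among themselves in how much fibrillar collagen RNA they held, and the hearts with more of it were compared with the hearts with less of it within each genotype. A score was computed for each library as the mean of log2(normalized count + 1) over 4 genes: Col1a1 and Col1a2, the chains of type I collagen, Col3a1, the chain of type III collagen, and Postn, which encodes periostin, a matrix protein of activated fibroblasts. Within each genotype the 4 libraries of highest score were called collagen-high and the 4 of lowest score collagen-low. All 16 libraries entered, 8 in each class. The classes are not treatment groups: they were made from the measured levels of these same libraries, so the 4 score genes are given below as a description only.

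The mice were C57BL/6, and every one carried the Tln2-null genotype. In 8 of them (4 males and 4 females) this was the only talin change named, and they are called Tln2-null here. In the other 8 (4 males and 4 females), called knockout here, Tln1 was also deleted in cardiac fibroblasts. Tln1 and Tln2 encode talins, adaptors between integrins and the actin cytoskeleton. Tamoxifen was given intraperitoneally to all mice for 5 days. After a gap of 2 weeks all of them got angiotensin II (AngII), a hormone that raises blood pressure, by osmotic pump for 8 weeks. The promoter that drives the Cre recombinase is not named in the labels, and no mouse without AngII, without tamoxifen or with wild-type Tln2 was among the samples. Each mouse is a separate animal, so the spread between libraries is between animals. The labels used here give no age.

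Collagens I and III are made in the heart mainly by fibroblasts, which lie between the heart muscle cells. Under pressure load or AngII, resting fibroblasts become activated, divide and secrete collagens, the enzymes that crosslink them and matricellular proteins such as periostin. Transforming growth factor beta (TGF-beta), held latent in the matrix, is a main signal for this change, and secreted frizzled-related proteins, which bind Wnt ligands, are among the products of the activated cells. Heart muscle cells, which hold most of the RNA of the ventricle, burn mainly fatty acids, and a loaded heart typically lowers its fatty acid oxidation genes.

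Total counts per library ran from 11161766 to 19221673. Tln1 lay at 4145 to 5295 normalized counts in the Tln2-null libraries and at 3640 to 5281 in the knockout libraries, so the ranges overlapped, and deletion in fibroblasts alone leaves the Tln1 RNA of all other cells. Tln2 was read in every library at 917 to 1262 normalized counts. With no wild-type mouse there was no level to set this against. The heart muscle myosin gene Myh6 lay at 309340 to 365250 normalized counts, and the skeletal muscle gene Atp2a1 stayed at 4.76 to 18.7. The atrial genes were low but not absent in every library: Myl4 lay at 29.0 to 92.4 and Myl7 at 0 to 13.2. Several libraries stood apart. Tln2-null replicate 5, collagen-high, held 1417 normalized counts of the heat shock gene Hspa1a, while the other 15 lay at 47.3 to 147. Tln2-null replicate 8, collagen-low, and knockout replicate 8, collagen-high, held 469 and 448 of the clock gene Arntl, against 60.3 to 139 in the rest. In 4 libraries labelled female (Tln2-null replicate 4 and knockout replicates 3, 5 and 7), summed Y-linked reads reached 1.11% to 2.89% of the male mean, while the other 4 held 0.175% to 0.392%. Left out of the fit in turn, these sets of libraries are taken up below beside the count of genes that passed and the difference between genotypes.

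The score ran from 11.09 to 12.67 in the Tln2-null mice and from 10.46 to 12.36 in the knockout mice. Its mean was 12.21 ± 0.36 in Tln2-null collagen-high, 11.43 ± 0.26 in Tln2-null collagen-low, 11.70 ± 0.44 in knockout collagen-high and 10.88 ± 0.29 in knockout collagen-low libraries (SD, n = 4 each). The class is therefore relative to the genotype: the 3 lower knockout collagen-high libraries (11.40 to 11.53) lay inside the range of the Tln2-null collagen-low libraries (11.09 to 11.71), and knockout replicate 2, at 12.36, stood far above the rest of its class. At the boundary, Tln2-null replicate 7 (11.81) fell into the high class and replicate 2 (11.71) into the low class, 0.10 apart. In the knockout mice, replicate 3 (11.40) and replicate 5 (11.10) were the neighbours across it, 0.30 apart. The Tln2-null division thus passes through nearly equal hearts.

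Among the score genes, Col1a1 had a median of 2468 normalized counts in the collagen-high libraries (1543 to 3751) and 1578 in the collagen-low libraries (740 to 2262). Postn had a median of 3948 (2177 to 6739) against 1454 (923 to 2507). Col3a1 lay at 4181 to 11652 against 1977 to 6563, and Col1a2 at 3229 to 6193 against 2024 to 3823. All 4 overlapped between the classes once the genotypes were put together. Col3a1 also overlapped within each genotype, at 4778 to 11652 against 3271 to 6563 in the Tln2-null mice. In the knockout mice Col3a1 lay at 4181 to 9268 against 1977 to 4194, and Col1a1 at 1542.6 to 2961 against 740 to 1543.3. Col1a2 and Postn did not overlap within a genotype.

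**Figure D1:**
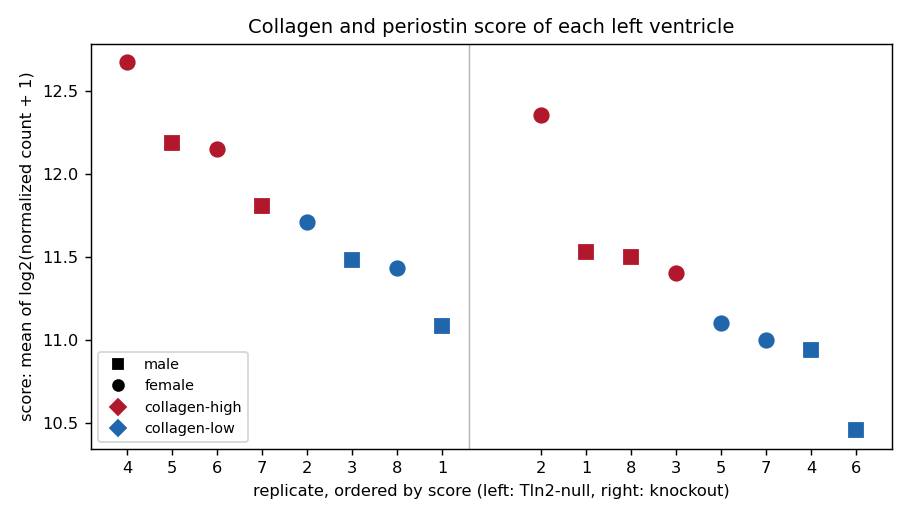
Score of each library (vertical axis, mean of log2(normalized count + 1) of Col1a1, Col1a2, Col3a1 and Postn), ordered within each genotype and marked by sex and class. Each class of each genotype holds 2 males and 2 females, and knockout replicate 2 (12.36) lies nearer to the Tln2-null collagen-high libraries than to the other knockout libraries.

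Sex was balanced and no library measure passed its test between the classes. Each class of each genotype held 2 males and 2 females. Total counts averaged 16458900 in collagen-high and 16912100 in collagen-low libraries, and the genes detected 16353 ± 194 and 16369 ± 133 (SD, n = 8). Of 6 such measures, none passed an exact two-sided permutation of the classes within genotype (4900 exchanges, adjusted p = 1 for each). The number in the sample title, whose meaning is not given, was on average higher in Tln2-null collagen-high (9.5) than collagen-low libraries (5.5) and lower in knockout collagen-high (8.25) than collagen-low libraries (13.5). The test averages the class difference over the 2 genotypes, so it could not show differences that run in opposite directions, as these do.

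Collagen-high hearts had more RNA of secreted matrix, crosslinking and activated fibroblast genes than collagen-low hearts of the same genotype. In a model with the genotype as a term, 62 of 13771 genes tested passed an adjusted p under 0.05, which is 0.45% of them. Of these, 60 were higher in the collagen-high hearts (0.436%) and 2 lower (0.0145%). The largest log2 fold changes among the named genes that passed were those of Comp, Sfrp2 and Ltbp2, at 2.16, 2.15 and 2.00, and the typical precision was a standard error of 0.09 on the log2 scale (median over all genes). In all 62 genes the log2 fold change had the same sign in both genotypes, against 49.7% of all genes, a share that a model with a common term for both genotypes favours. The classes did not overlap within either genotype in 25 of the 62, against 0.312% of all genes. Choosing genes by their difference between these same classes itself favours such separation. Within the Tln2-null mice alone 5.64% of all genes were without overlap, and within the knockout mice 5.9%. Many of these genes are known products of fibroblasts, as the score genes are, so they are a description of what varied together in these hearts and not separate evidence on it. In bulk tissue, fewer cells of a type and less RNA per cell cannot be told apart.

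The number of genes that passed depended on single hearts. It was 3 without Tln2-null replicate 1, 18 without replicate 3, 3 without replicate 4, 28 without replicate 5 (the heat shock library) and 4 without replicate 6. It was 2 without knockout replicate 2, 39 without replicate 3, 3 without replicate 4, 2 without replicate 6 and 18 without replicate 7, and it lay between 43 and 92 without any 1 of the other 6. Without the 2 libraries of other clock phase it was 41. When the 4 females that held Y-linked reads were left out it was 1. Sfrp2 and Ltbp2 passed in all 16 fits that left out 1 library and Tgfb3 in 14, while each of the other 38 genes named as called passed in 2 to 10. Of the 41 genes named as called, 21 passed without the heat shock library, 27 without the 2 libraries of other clock phase and 1 (Rcn3) without the 4 females. Without the 4 females, Sfrp2 kept its size (2.21, adjusted p = 0.0675) and so did Ltbp2 (2.19, adjusted p = 0.0619).

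Sfrp2 (chr3:83765750-83774314, GRCm38.p6) encodes a secreted frizzled-related protein that binds Wnt ligands and, in fibrotic tissue, also takes part in collagen processing. In the Tln2-null mice it stood at 366, 373, 342 and 108 normalized counts in the collagen-high hearts and at 94.7, 56.8, 58.3 and 38.6 in the collagen-low hearts. In the knockout mice the values were 138, 61.5, 102 and 71.4 against 29.8, 23.6, 28.4 and 10.1. Each class held apart within its genotype, while the knockout collagen-high hearts overlapped the Tln2-null collagen-low hearts. The log2 fold change was 2.15 ± 0.28 (SE, adjusted p = 0.00382), and 2.25 ± 0.37 in Tln2-null and 2.00 ± 0.43 in knockout mice.

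Ltbp2 (chr12:84783212-84876558) encodes a latent TGF-beta binding protein of microfibrils that, unlike its relatives, does not itself hold latent TGF-beta. Its normalized counts were 1049, 795, 1232 and 502 in the Tln2-null collagen-high hearts and 345, 281, 122 and 138 in the collagen-low hearts. In the knockout mice they were 437, 318, 187 and 214 against 84.9, 117, 40.1 and 54.7. As with Sfrp2, the classes were apart within each genotype and not across them. The log2 fold change was 2.00 ± 0.26 (SE, adjusted p = 0.00382), with 2.01 in Tln2-null and 1.98 in knockout mice.

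Tgfb3 (chr12:86056743-86079041), one of the TGF-beta ligands, stood at 665, 748, 693 and 584 normalized counts in Tln2-null collagen-high hearts and at 525.7, 440.1, 539 and 457 in the collagen-low hearts. The knockout values were 541, 539, 441 and 479 against 400, 308, 372 and 313. Again the classes did not overlap within a genotype. The change was smaller than for the 2 preceding genes, a log2 fold change of 0.49 ± 0.07 (SE, adjusted p = 0.0154). It passed in every fit with 1 library left out except 2, those without knockout replicate 2 and knockout replicate 6, where the adjusted p reached at most 0.0508.

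Comp (chr8:70373548-70382066), cartilage oligomeric matrix protein, which binds collagen fibrils, shows how uneven the hearts were. In the Tln2-null mice it stood at 543, 1073, 1500 and 501 normalized counts in the collagen-high hearts and at 501, 101, 31.5 and 125 in the collagen-low hearts. In the knockout mice it stood at 461, 265, 82.6 and 168 against 84.0, 60.8, 48.0 and 43.6. The highest collagen-low Tln2-null heart stood level with the lowest collagen-high one, and 1 collagen-high knockout heart lay below the highest collagen-low one. The log2 fold change was 2.16 ± 0.44 (SE, adjusted p = 0.0377), and between 1.96 and 2.70 when 1 library was left out.

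**Figure D2:**
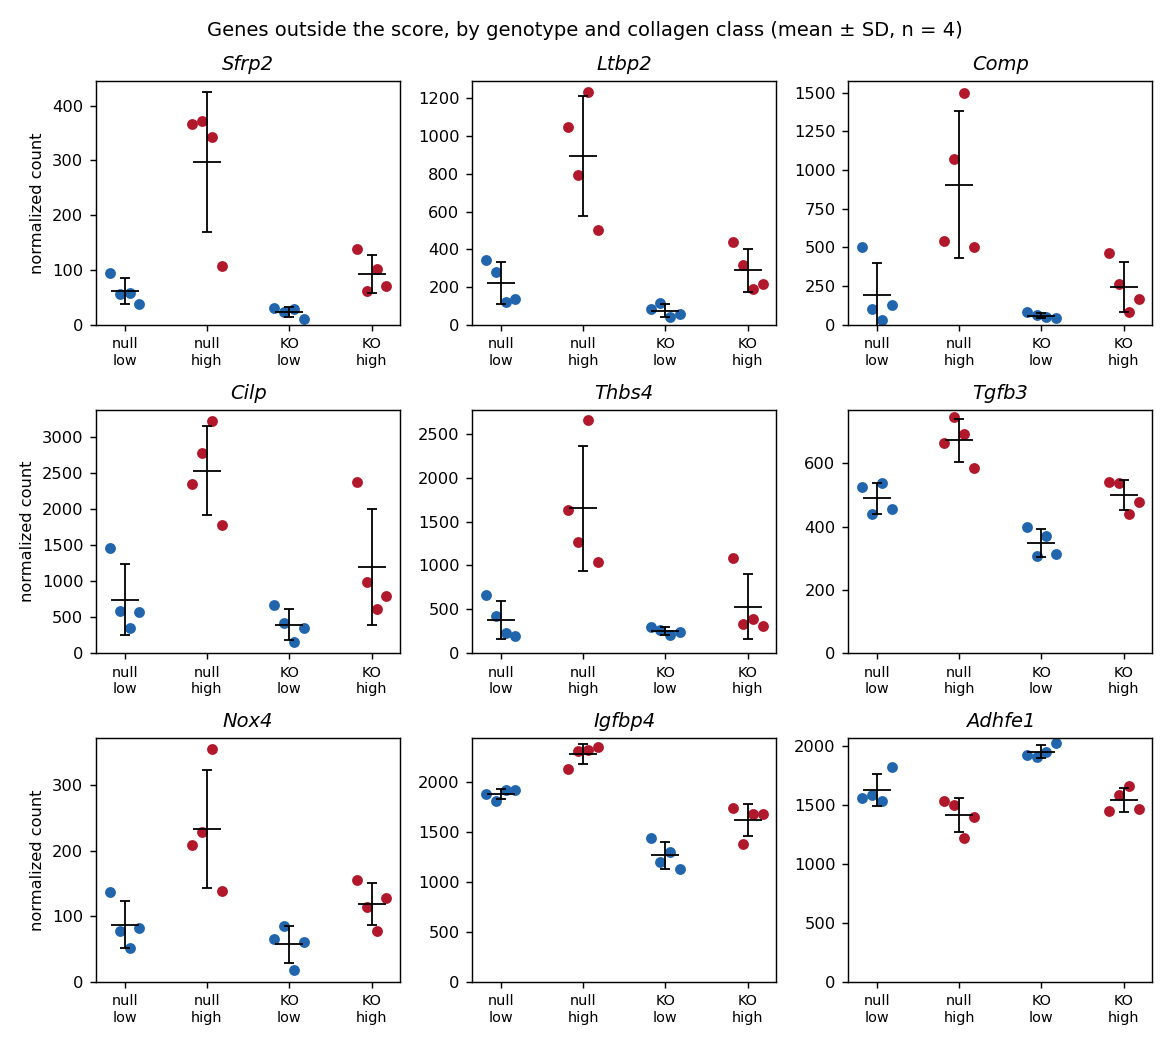
Normalized counts (vertical axes) of 9 genes in the 4 libraries of each genotype and class, as points, with mean and SD (bars, cut at 0). Sfrp2, Ltbp2 and Tgfb3 did not overlap between the classes within a genotype, Comp and Nox4 did so in the knockout mice, and Adhfe1 was lower in the collagen-high hearts.

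The list of activated fibroblast genes held 29 genes tested, of which 11 passed as higher and 0 as lower, and 24 had a positive log2 fold change. Its median was 0.64, beside -0.01 over all genes tested. For this list and those below, the shares over all genes tested were 47.8% with a positive log2 fold change (6576 positive and 7195 negative). At an unadjusted p under 0.05 in edgeR, 6.62% of all genes were higher and 4.45% lower. Thbs4, a thrombospondin of the pericellular matrix, had a median of 1062 normalized counts in collagen-high hearts (313 to 2650) and 252 in collagen-low hearts (193 to 668). Tnc, tenascin C, lay at 38.1 to 143 against 14.6 to 62.6, and Nox4, an NADPH oxidase induced by TGF-beta, at 78.2 to 355 against 17.6 to 137. Their log2 fold changes were 1.62 ± 0.32, 1.32 ± 0.25 and 1.26 ± 0.26 (SE). Ddah1 breaks down an inhibitor of nitric oxide synthases. It was 1 of the 2 called genes whose 8 and 8 libraries did not overlap (255 to 326 against 177 to 247). This held for 0.0218% of all genes, and the call itself favours it. With those 4 females left out the list median was 0.55 with 0 genes called, and without knockout replicate 2 it was 0.53 with 2 called.

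The contractile genes of the same list did not pass, and they are named here after their values were known. Acta2, smooth muscle actin and the usual marker of myofibroblasts, had a median of 3900 normalized counts in collagen-high hearts (2785 to 5636) and 4017 in collagen-low hearts (2064 to 9818), a log2 fold change of -0.15 ± 0.25. Tagln and Cnn1, calponin-related actin-binding proteins, stood at -0.05 ± 0.15 and -0.18 ± 0.21. Fap, a surface protease of activated fibroblasts, was at 144 against 148 in the median (0.04 ± 0.10). None of these 4 passed in any direction, and vascular smooth muscle also holds Acta2, Tagln and Cnn1 in the ventricle, so their level in fibroblasts was not measured.

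Of the 34 fibrillar collagen and matrix glycoprotein genes outside the score, 10 passed as higher, 0 as lower, and 32 had a positive log2 fold change, with a median of 0.44. Col8a2, a short-chain collagen, was at a median of 92.3 normalized counts (30.5 to 267) against 21.7 (9.79 to 79.1), a log2 fold change of 1.95 ± 0.34. Col12a1, a collagen that coats type I fibrils, was at 194 (67.8 to 491) against 53.4 (45.0 to 138), or 1.64 ± 0.27. The microfibril proteins Mfap4 and Mfap5 and dermatopontin (Dpt) rose by 1.29 ± 0.23, 0.94 ± 0.20 and 0.43 ± 0.08. Col16a1 rose by 0.66 ± 0.12, with 248 to 599 against 179 to 306 normalized counts.

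Among the small leucine-rich proteoglycans, which regulate the width of collagen fibrils, all 10 genes tested had a positive log2 fold change (median 0.40), and 2 passed. Bgn, biglycan, was at a median of 7539 normalized counts (5419 to 11274) against 5693 (4038 to 6847), a log2 fold change of 0.52 ± 0.10. Aspn, asporin, was at 1598 (1146 to 2276) against 1122 (769 to 1235), or 0.63 ± 0.13. Fmod, fibromodulin, had a larger difference of 2.19 ± 0.49 that missed the threshold (adjusted p = 0.0541), its libraries running from 37.1 to 890 against 12.7 to 284.

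The matricellular list had 5 of 21 genes called higher and 0 lower, with a median of 0.39. Besides Comp, Thbs4 and Tnc, these were Fstl1, a secreted follistatin-like protein made by fibroblasts (0.63 ± 0.11), and Spp1, osteopontin (1.56 ± 0.27), whose mean lay under 30 normalized counts. The cartilage-like matrix list had 3 of 16 called: Cilp, Comp and Thbs4. All 3 also stand in the activated fibroblast list, since the lists share genes and are not separate results. Cilp, cartilage intermediate layer protein, was at a median of 2063 normalized counts (609 to 3227) against 493.3 (162 to 1460), a log2 fold change of 1.68 ± 0.32.

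The collagen processing genes that passed were crosslinking enzymes. Of 30 tested, 23 were positive, and 12 were higher and 1 lower at an unadjusted p under 0.05. The 3 that passed are all of the lysyl oxidase family, which links collagen and elastin chains. Lox was at a median of 246 normalized counts (134 to 656) against 131 (89.1 to 243), a log2 fold change of 0.94 ± 0.19. Loxl3 was at 232 (146 to 372) against 145 (105 to 194), or 0.82 ± 0.14, and Loxl1 at 1076 (789 to 1442) against 758 (472 to 1070), or 0.52 ± 0.11. The procollagen N-proteinase Adamts2 stood at 0.55 ± 0.13 and did not pass (adjusted p = 0.0817). Whether the family differs from the other genes of the list was not tested.

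None of the 32 matrix protease and inhibitor genes passed in edgeR, while 9 had an unadjusted p under 0.05, all 9 higher. Timp2, an inhibitor of metalloproteinases, and Mmp2, gelatinase A, came nearest, at 0.32 ± 0.08 (adjusted p = 0.0712) and 0.51 ± 0.13 (adjusted p = 0.0991). Of 19 basement membrane genes, all 19 had a positive log2 fold change (47.8% of all genes did), with a median of 0.15. None passed, and 8 were higher at an unadjusted p under 0.05 (6.62% of all genes were). Col15a1, a collagen at the border of basement membranes, was at a median of 3043 normalized counts (1743 to 4157) against 1743 (1221 to 3073), or 0.62 ± 0.19 (adjusted p = 0.173).

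Of 30 resting fibroblast genes, 3 passed as higher and 0 as lower, 26 were positive, and the median was 0.22. Igfbp4, a binding protein of insulin-like growth factors, rose by 0.32 ± 0.06, and Fbln1, fibulin 1, by 0.65 ± 0.13 (1285 to 3250 normalized counts against 959 to 2465). The lineage markers Pdgfra, a growth factor receptor, and Tcf21, a transcription factor of fibroblasts, stood at 0.24 ± 0.08 (adjusted p = 0.200) and 0.36 ± 0.16 (adjusted p = 0.401) and did not pass. Dcn, decorin, and Gsn, gelsolin, were at 0.24 ± 0.08 and 0.19 ± 0.09.

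In the TGF-beta and SMAD list, 2 of 39 genes passed, Ltbp2 and Tgfb3, and the median was 0.10. The other 2 ligands did not pass and are named after their values were known: Tgfb1 was at a median of 574 against 506 normalized counts (0.18 ± 0.09), and Tgfb2 at 336 against 293 (0.32 ± 0.11). The receptor Tgfbr1 (0.27 ± 0.08) and the signal transducer Smad1 (0.23 ± 0.07) had unadjusted p under 0.05 only. Of the Wnt list, 3 of 19 passed: Sfrp2, Dkk3 (a secreted relative of the Dickkopf Wnt inhibitors, 1.30 ± 0.24) and Frzb (a further frizzled-related protein, 0.76 ± 0.15). Sfrp1 was at 0.55 ± 0.13 (adjusted p = 0.0763).

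The growth factor list had 1 of 31 genes called, Igfbp4. Igfbp6, which binds mainly IGF-II, stood at a median of 682 normalized counts against 380 (0.82 ± 0.18, adjusted p = 0.0541), and Pdgfrl, a PDGF receptor-like protein, at 124 against 64.8 (0.94 ± 0.22, adjusted p = 0.0638). Of 34 integrin and focal adhesion genes 0 passed in edgeR, with 9 higher at an unadjusted p under 0.05. Itga11, the fibroblast collagen receptor subunit, was at 82.3 (45.7 to 121) against 40.3 (27.0 to 79.9), or 0.79 ± 0.24. Tln1 and Tln2 were at 0.11 ± 0.06 (adjusted p = 0.601) and -0.01 ± 0.06 (adjusted p = 0.982).

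**Figure D3:**
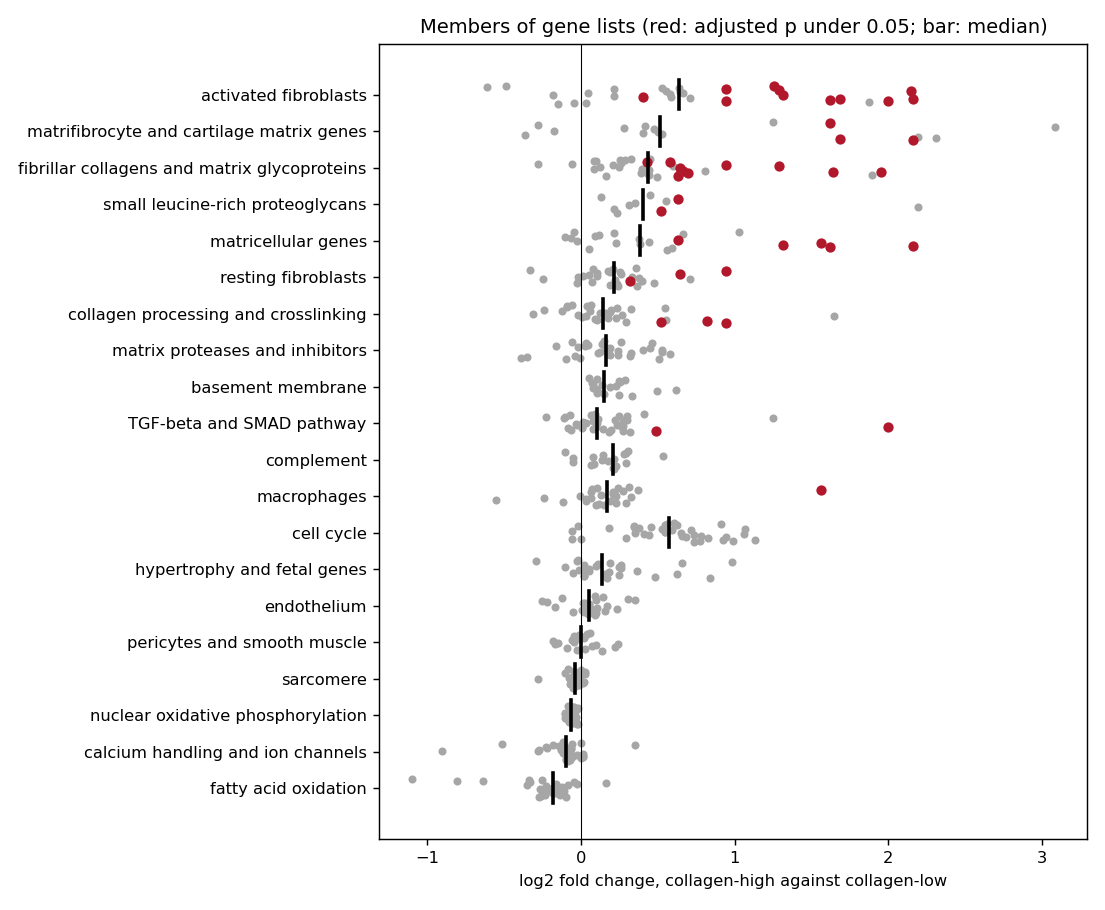
Log2 fold change, collagen-high against collagen-low, of every gene tested in 20 lists (horizontal axis), with genes of adjusted p under 0.05 in red and a bar at the list median. The medians of the activated fibroblast (0.64), cell cycle (0.58), cartilage-like matrix (0.52) and matrix glycoprotein lists (0.44) lie right of 0, and that of the fatty acid oxidation list (-0.18) lies left of it.

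The promoters of 2 of the genes that rose and of 1 score gene are shown because these genes moved together in the hearts. The windows are the 250 bases before the RefSeq start on GRCm38.p6, all on the plus strand. Capitals mark the SMAD box CAGAC or its reverse GTCTG, which SMAD proteins can bind. They lie at chr4:126286544-126286793 for Col8a2, chr9:65264930-65265179 for Cilp and chr6:4505368-4505617 for Col1a2. The first 2 were taken as the called genes of largest fold whose window lies wholly before the annotated gene.
Col8a2: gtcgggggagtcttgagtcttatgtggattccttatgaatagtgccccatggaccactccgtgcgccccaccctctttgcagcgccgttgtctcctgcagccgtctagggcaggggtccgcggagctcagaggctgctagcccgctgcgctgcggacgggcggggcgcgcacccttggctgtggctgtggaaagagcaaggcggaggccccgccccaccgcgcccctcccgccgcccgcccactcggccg
Cilp: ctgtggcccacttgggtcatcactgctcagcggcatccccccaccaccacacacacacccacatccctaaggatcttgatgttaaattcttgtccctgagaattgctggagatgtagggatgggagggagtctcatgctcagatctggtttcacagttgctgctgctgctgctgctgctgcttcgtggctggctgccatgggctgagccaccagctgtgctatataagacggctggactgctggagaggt
Col1a2: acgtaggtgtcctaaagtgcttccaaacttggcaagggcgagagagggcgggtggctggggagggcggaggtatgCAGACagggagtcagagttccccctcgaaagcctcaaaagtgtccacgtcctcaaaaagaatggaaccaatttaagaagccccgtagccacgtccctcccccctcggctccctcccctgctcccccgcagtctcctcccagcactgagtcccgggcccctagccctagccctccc
The Col1a2 window holds 1 SMAD box, and these letters are in neither of the other windows. Over the called genes found in the table (39 genes with 51 windows), 52.9% of windows held the box, beside 40.6% of the windows of all genes tested and 42.2% of all windows. The CCAAT box, CCAAT or ATTGG, stood in 35.3%, 34.8% and 33.8%. The called genes gave only 27 windows with the SMAD box, several windows of 1 gene count separately, and the gap between these shares was not tested. A match is a description of letters and not of binding.

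Genes that passed and stood in no list were 31 in number. Pla1a, a secreted phospholipase, was at a median of 515 normalized counts (480 to 540) against 412 (344 to 479.6), without overlap of the 8 and 8 libraries, at a log2 fold change of 0.30 ± 0.06. Gas1, a surface protein linked to growth arrest, was at 1012 (628 to 1353) against 594 (440 to 941), or 0.67 ± 0.12. Panx1, a channel that releases ATP, Dbn1, an actin-binding drebrin, and Ptgis, prostacyclin synthase, rose by 0.80 ± 0.14, 0.76 ± 0.14 and 0.59 ± 0.11. Vat1, Pqlc3, Rcn3 (a calcium-binding protein of the secretory pathway) and the potassium channel gene Kcnj15 rose by 0.46 ± 0.08, 0.56 ± 0.10, 0.49 ± 0.09 and 1.14 ± 0.24. Outside the matrix and fibroblast lists, Nupr1, a stress-induced nuclear protein of the stress response list, and Pmp22, a myelin protein of the glia list, rose by 0.74 ± 0.16 and 0.44 ± 0.09.

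The 2 genes called lower were small changes. Adhfe1, a mitochondrial enzyme of the iron-containing alcohol dehydrogenase family, was at a median of 1487 normalized counts (1220 to 1665) in collagen-high hearts and 1867 (1533 to 2030) in collagen-low hearts, a log2 fold change of -0.27 ± 0.06 (adjusted p = 0.0438). Tspan33, a tetraspanin, was at 29.6 (21.0 to 38.3) against 45.5 (37.97 to 60.7), or -0.64 ± 0.14 (adjusted p = 0.0441). The class ranges overlapped for both. They passed in 3 and 2 of the 16 fits that left out 1 library.

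Fatty acid oxidation genes were lower in small steps. Of 33 tested, 32 had a negative log2 fold change, 26 an unadjusted p under 0.05 in that direction (4.45% of all genes did), and 0 passed in edgeR after adjustment. With DESeq2, 5 passed as lower. The median was -0.18, and between -0.22 and -0.15 under every alternative run. Etfdh, which passes electrons from fatty acid oxidation to the respiratory chain, was at 12283, 14663, 12938 and 12819 normalized counts in Tln2-null collagen-high hearts and at 15710, 15497, 16113 and 15822 in collagen-low hearts. In knockout mice it was at 12596, 15597, 16700 and 14014 against 16630, 17551, 16063 and 17061. The classes were apart in the Tln2-null mice and overlapped in the knockout mice, and the log2 fold change was -0.22 ± 0.05 (adjusted p = 0.0732). Cpt2, a carnitine transferase of the inner mitochondrial membrane, Acsl1, which activates long-chain fatty acids, and Eci2, an enoyl-CoA isomerase, were at -0.26 ± 0.07, -0.18 ± 0.05 and -0.23 ± 0.06. Heart muscle markers stood beside them at -0.05 ± 0.04 (Myh6), -0.02 ± 0.05 (Tnnt2), -0.02 ± 0.05 (Ttn) and -0.04 ± 0.05 (Actn2). Their part in the result was not tested.

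**Figure D4:**
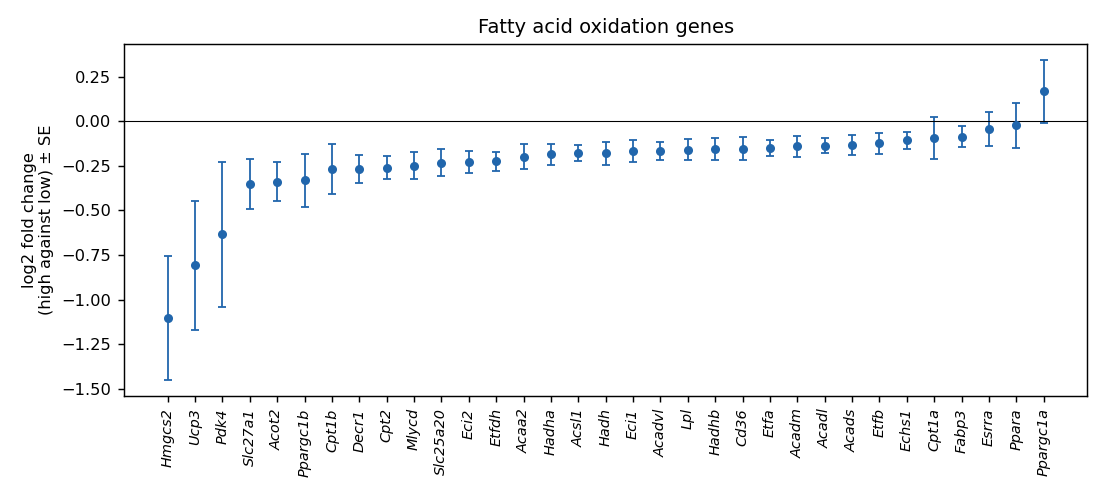
Log2 fold change with SE (vertical axis, collagen-high against collagen-low) of the 33 fatty acid oxidation genes tested, ordered by size. Of these 32 lie below 0, most by about 0.2, and 0 had an adjusted p under 0.05.

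Of the nuclear genes of oxidative phosphorylation, 40 of 40 had a negative log2 fold change with a median of -0.06, 1 had an unadjusted p under 0.05, and 0 passed. The calcium handling and ion channel list had 27 of 32 negative, a median of -0.09, 8 lower and 1 higher at an unadjusted p under 0.05, and 0 called. Scn4b, a sodium channel subunit, was at 560 (274 to 1065) against 1038 (695 to 1928) normalized counts, or -0.90 ± 0.24 (adjusted p = 0.114), and at -1.47 in Tln2-null and -0.34 in knockout mice.

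Among hypertrophy and fetal genes 0 of 28 passed in edgeR, and 2 were higher at an unadjusted p under 0.05, a share near the 6.62% of all genes. Nppa, atrial natriuretic peptide, which the loaded ventricle re-expresses, had a median of 18845 normalized counts (12670 to 31295) against 11188 (4776 to 18897), a log2 fold change of 0.84 ± 0.20 (adjusted p = 0.0764). Myh7, the slow myosin heavy chain, Nppb, brain natriuretic peptide, and Acta1, skeletal actin, were at 0.48 ± 0.31, 0.17 ± 0.53 and 0.02 ± 0.28. With its SE of 0.53, a change in Nppb as large as that of Nppa would not have been detectable.

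Cell cycle genes leaned higher: 35 of 38 had a positive log2 fold change, 24 an unadjusted p under 0.05 (6.62% of all genes were higher at that level), 0 passed in edgeR, and the median was 0.58. Mcm2, a subunit of the replicative helicase, was at 205 (163 to 299) against 156 (118 to 206) normalized counts, or 0.53 ± 0.14 (adjusted p = 0.122). Tyms, which makes thymidylate, was at 0.54 ± 0.18 and Mki67, the proliferation antigen, at 0.74 ± 0.32. The list median was 0.44 without knockout replicate 2 and 0.38 with the 4 females left out.

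Few markers of other cells passed. Of 28 macrophage genes 1 passed (Spp1) and 24 were positive, with a median of 0.17. At an unadjusted p under 0.05, 9 of them were higher and 1 lower, beside 6.62% and 4.45% of all genes. The complement subunits C1qa, C1qb and C1qc, made by macrophages, were at 0.22 ± 0.07, 0.21 ± 0.07 and 0.21 ± 0.06, and Cd68 at 0.10 ± 0.16. The macrophage list summed to 10361 to 12471 normalized counts in collagen-high and 9394 to 11186 in collagen-low hearts. In the complement list 0 of 19 passed in edgeR and 8 were higher at an unadjusted p under 0.05, with Serping1, the C1 inhibitor, at 0.28 ± 0.07. The endothelial list (25 tested, 0 called, median 0.05) and the pericyte and smooth muscle list (20 tested, 0 called, median 0.00) stayed near 0, with Pecam1 at 0.09 ± 0.08 and Rgs5 at -0.02 ± 0.06. Mesothelial Msln and Upk3b were at 0 to 14.9 and 0 to 15.8 normalized counts, each at 0 in 1 library. The parts that such cells have in the matrix genes were not tested.

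The 2 genotypes share no mice, and the genes called in one were read in the other. The spread of each gene was estimated over both genotypes, and the same 4 score genes made the classes in both. The shares below are therefore a description and not an independent test, and the share over all genes is not a strict baseline. Within the Tln2-null mice alone, 34 genes passed (0.247%), 20 higher (0.145%) and 14 lower (0.102%). There the mean title number was 9.5 in collagen-high and 5.5 in collagen-low libraries, while in the knockout mice it ran the opposite way (8.25 and 13.5). Its part in the calls within a genotype was not tested. In the knockout mice, 17 of the 20 higher genes had the same sign and 10 an unadjusted p under 0.05 in that direction, which 6.89% of all genes had. Of the 14 lower genes, 9 had the same sign there and 0 an unadjusted p under 0.05 in that direction, which 4.94% of all genes had. The 10 were Sfrp2, Ltbp2, Col12a1, Loxl3, Nav3, Rcn3, Dlg2, Dkk3, Thbs4 and Col8a2, all of which also passed in the comparison over both genotypes. Without Tln2-null replicates 3 or 6 no gene passed within the Tln2-null mice, 2 did without replicate 1, 8 without replicate 5, 13 without replicate 8 and 21 without replicate 4. Since both genotypes share 1 estimate of the spread, the number also fell without knockout replicates 3, 6 and 7, to 5, 18 and 15.

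Some genes of the Tln2-null mice had no such difference in the knockout mice, and these are named after their values were known. Igfbp3, a further IGF binding protein, was at 887 to 1280 normalized counts against 428 to 636 in Tln2-null mice and at 662 to 747 against 651 to 817 in knockout mice. Mcm5, a helicase subunit, was at 132 to 150 against 70.0 to 79.9 and at 69.5 to 107 against 75.9 to 109. The log2 fold changes were 0.84 and -0.04 for Igfbp3 and 0.91 and -0.01 for Mcm5, and neither difference between the genotypes was called. The part of the title number in the Tln2-null differences was not tested.

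Within the knockout mice alone, 0 genes passed in edgeR (smallest adjusted p = 0.150), 1629 had an unadjusted p under 0.05 (11.8%), and DESeq2 called 56. Without knockout replicate 7, edgeR called 2. Ltbp2 (1.98 ± 0.40) and Sfrp2 (2.00 ± 0.43) were as large there as in the Tln2-null mice. The difference of the class effect between the genotypes was -0.02 ± 0.57 for Ltbp2 and -0.25 ± 0.58 for Sfrp2 (SE), so that differences of about 1 log2 unit could not have been told from 0.

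**Figure D5:**
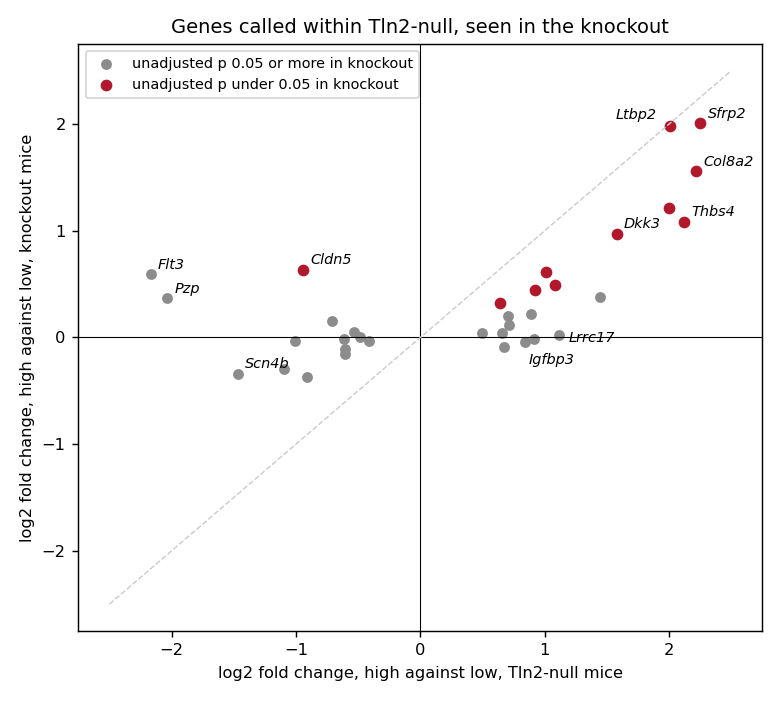
Log2 fold change, collagen-high against collagen-low, of the 34 genes called within the Tln2-null mice (horizontal axis) and of the same genes in the knockout mice (vertical axis). Of the 20 genes on the right 10 are red (unadjusted p under 0.05 in the knockout mice), among them Sfrp2, Ltbp2 and Col8a2, and of the 14 on the left only Cldn5 is, on the opposite side of 0.

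The class effect differed between the genotypes for 2 genes (0.0145%). Cldn5 (chr16:18776847-18778262), the tight junction claudin of endothelium, was at 610, 415, 446 and 405 normalized counts in Tln2-null collagen-high hearts and at 962, 954, 617 and 1072 in collagen-low hearts. In the knockout mice the order was opposite, with 774, 782, 565 and 606 against 534, 418, 383 and 429. The classes did not overlap in either genotype. The difference, knockout minus Tln2-null, was 1.58 ± 0.24 on the log2 scale (SE, adjusted p = 0.0341).

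Crnde (chr8:92326031-92356120), a long non-coding RNA, went the other way. It was at 145, 184, 173 and 173 normalized counts in Tln2-null collagen-high hearts and at 104, 114, 133 and 94.7 in collagen-low hearts, and at 106, 76.6, 108 and 91.4 against 175, 160, 134 and 172 in the knockout mice. The classes were again apart in both genotypes, and the difference was -1.36 ± 0.20 (SE, adjusted p = 0.0341). These are 2 genes chosen from 13771 on 4 libraries a class and genotype. In 11 of the 16 fits that left out 1 library no gene passed this test, and the number passing ran from 0 to 11. Without the 2 libraries of other clock phase 92 genes passed, both of these among them, and when the 4 females holding reads of Y-linked genes were left out 2 passed, of which Cldn5 was 1 (adjusted p = 0.0420) and Crnde was not (adjusted p = 0.174).

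As given above, the mean title number was higher in collagen-high than collagen-low libraries of the Tln2-null mice and lower in those of the knockout mice. Cldn5 lay at 774 to 1072 normalized counts in the 5 libraries of title numbers 1 to 5 and at 383 to 617 in the 11 of title numbers 6 to 18. Crnde lay at 76.6 to 114 in the first 5 and at 91.4 to 184 in the others. Neither the labels nor the planned comparisons set a cut between title numbers 5 and 6. The separation of Cldn5 at that cut is a description only. With the title number as a term, a fit chosen after seeing the data, no gene passed the test of the difference in edgeR (1525 at an unadjusted p under 0.05), and Cldn5 and Crnde stood at 1.12 and -1.12 (adjusted p = 0.0666 for each). Its part in the result was not tested beyond this fit.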

How the data were processed

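The deposited count table gives whole-read counts per gene symbol for 16 libraries (24982 entries, of which 5758 were at 0 in every library). The deposited normalized table gives a signal for 16405 genes, which is each count over the size factor of its library: 100% of its values were whole to 0.001 after multiplication. Per the submitters' processing notes, DRAGEN, DESeq2 and mm10 were used, without role or version, and the annotation and strand setting of the counting were not given in the sources used here. Of 26 symbols turned into dates 21 were restored, and 5 entries stayed without a symbol and out of all tests (2.622040261e-06% of counts). Reads shared between similar genes, such as members of a gene family, could not be followed.

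The members, gene lists and comparisons were chosen with earlier results of these data known. The score used the deposited signal with a pseudocount of 1. Counts were tested with edgeR 4.0.16 (R 4.3.3), with TMM scaling, filterByExpr (13771 genes left), a quasi-likelihood test with genotype and class as terms, and Benjamini-Hochberg adjusted p under 0.05. Models with 1 mean per genotype and class gave the effects within a genotype and their difference. The SE was worked back from the F statistic and is approximate, and log2 fold changes of low counts are drawn toward 0. All values and class ranges in the text are the deposited normalized counts, which have no length scaling, so levels are not compared between genes. On simulated data with known changes the script recovered what was put in. The simulation held no genotype effect and no changes as small as those of most called genes. Its classes were set before the counts were drawn and not made from them, so it does not cover these features of the comparison. Alternatives were DESeq2 1.42.0 and its size factors, limma 3.58.1, other filters, covariates and scores, and each library left out.

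Genes named were Tln1 and Tln2, then, of called genes with a mean of at least 30, up to 12 in each direction by size and up to 8 in no list by p, up to 4 members of lowest p per list described, and the called genotype differences. Others are said to be chosen after their values were seen. Markers of cell types, fixed with the lists, are also named.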

Additional observations from a re-analysis of the deposited data

Results flagged for a closer look

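Within a genotype, 8 libraries allow a search for a single library far from the others, and 186 such groups were searched, in which chance flags about 1 in 20. The search took in the score, library measures and 88 genes of the text, without Hspa1a and Arntl, whose stray libraries are given above. It found 7 values, no more than chance alone would flag in that many groups. Nid2, a basement membrane nidogen, stood at 801.9 normalized counts in Tln2-null replicate 4 (collagen-high), the others at 453 to 568.3. Itga9, an integrin subunit, stood at 1709 in Tln2-null replicate 1 (collagen-low), the others at 2169 to 2596. Nox4 stood at 17.6 in knockout replicate 4 (collagen-low), the others at 60.3 to 155.

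The other 4 were all the highest library of the knockout mice, replicate 2 (collagen-high), the heart whose score stood far above its class. It held 204.6 normalized counts of Col12a1 (45.0 to 92.3 in the others), 1084 of Thbs4 (204 to 391), 368 of Ctsk, cathepsin K (174 to 247), and 65.2 of Tyms (29.3 to 41.8).

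The class effect differed between the genotypes, by the test of the difference itself, for Crnde (-1.36, knockout minus Tln2-null on the log2 scale, with 0.61 in Tln2-null and -0.75 in knockout mice) and for Cldn5 (1.58, with -0.94 and 0.63). Both had an adjusted p of 0.0341 in edgeR, and of 0.0666 with the title number as a term.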

How the results depend on the processing

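The score on CPM or without Postn gave the same classes (62 genes called each). Counts recovered from the normalized table, an alternative chosen after seeing the data, equalled the deposited counts for its 16405 genes (62 called). These fits repeated the main one and say nothing on its stability. The number of genes called over both genotypes (62) stayed within 1.5 times with DESeq2 size factors (61), no filter (66), a stricter filter (61), limma on the normalized values (56) and 3 against 3 hearts (72). It was 213 with DESeq2, 117 with sex as a covariate, 32 with limma-voom, 97 with the title number as a covariate, 507 with the score as a continuous term, 28 without the heat shock library, 41 without the 2 libraries of other clock phase, 1 without the 4 females with Y-linked reads, and 0 without the genotype as a term (edgeR, 1481 at an unadjusted p under 0.05). DESeq2 called all 62 and the continuous score 55 of them. The call of each of the 41 named called genes was lost without the genotype term, and all 41 kept their sign in every fit. Leaving out 1 library gave 2 to 92.

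Within the Tln2-null mice 34 genes became 179 with DESeq2 and 57 with sex as a covariate, and 0 to 46 with 1 library left out. Within the knockout mice 0 became 56 with DESeq2, and 0 to 2 with 1 library left out. For the difference between genotypes 2 became 80 with DESeq2, and 0 to 11 with 1 library left out. In fits chosen after seeing the data it became 0 with the title number as a term (edgeR, 1525 at an unadjusted p under 0.05) and 92 without the 2 libraries of other clock phase, and when the 4 females holding reads of Y-linked genes were left out it was 2. The cause of these shifts was not tested. Class differences in library measures, with 1 library left out, ran from -2.25 to 0.79 for the title number, -0.0833 to 0.0833 for the share of males, -1040120 to 266120 for total counts, -67.3 to 30.3 for genes detected, -0.0507 to 0.0382 for the size factor and -0.125 to -0.00267 for the percent of counts in the top 10 genes. Of 1419 list medians under alternatives, 1 moved by more than the spread. The spread here was the SD of the list mean between single libraries of the same genotype and class. This is a wide bound for a median over both classes, so staying within it says little about its precision.

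No paired analysis was possible because the replicate numbers were given in the order of the records and pair no mice. The main limits are the number of hearts, the classes made from the data, and the closeness of the hearts at the boundary.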

Other observations

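The glia list, whose myelin protein gene Pmp22 rose, had 8 of its 12 genes tested with a negative log2 fold change and 5 lower at an unadjusted p under 0.05, with a median of -0.26. The lymphocyte list had 11 of 11 genes tested negative, with a median of -0.27, at summed levels of 105 to 214 against 125 to 269 normalized counts, and 0 passed in edgeR (1 at an unadjusted p under 0.05). Within the genotypes its median was 0.09 in Tln2-null and -0.85 in knockout mice, a difference that was not tested.

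Immediate early genes had 21 of 23 positive with a median of 0.25, which was -0.05 within the Tln2-null and 0.57 within the knockout mice. The difference between these medians was not tested, and 0 genes of the list passed in edgeR (4 higher at an unadjusted p under 0.05). Pfkfb1, a regulator of glycolysis, stood at a median of 154 normalized counts (94.6 to 214) against 232 (176 to 436), a log2 fold change of -0.78 ± 0.19 (SE, adjusted p = 0.0832).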
